A study of Mus musculus with 6 samples.

Results

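The 9 genes described here encode parts of the phagocyte NADPH oxidase (Cybb, Cyba, Ncf1, Ncf4 and Rac2) and enzymes that remove reactive oxygen species (Sod1, Sod2, Cat and Gpx1). They were taken by symbol from a table of 24016 mouse genes, and all 9 were found. The cells were bone marrow-derived macrophages, grown with 20 ng/mL M-CSF from bones of 8-week-old C57BL/6N females, with stripped serum and no phenol red. Cultures were plated on day 7, received an estrogen at 1 µM or ethanol for 1 h, and were then given 100 ng/mL LPS, a bacterial cell wall component, for 6 h. The hydroxyestrogen group comprised 3 libraries of catechol estrogens, which carry an added hydroxyl group on the aromatic ring: 2OHE2, which is 2-hydroxyestradiol (replicate 1), 4OHE1, which is 4-hydroxyestrone (replicate 2), and 2OHE1, which is 2-hydroxyestrone (replicate 3). The control group comprised the vehicle EtOH (replicate 1), E2, which is estradiol (replicate 2), and 16Epi, an estrogen named no further in the labels (replicate 3). Groups follow the sample titles and the column headers, since another field of the labels gives the treatments the other way round. Every culture received LPS, so levels without LPS were not measured. With a single library for every compound, differences between compounds are part of the spread within each group. Nothing in the labels says whether animals or cultures were separate, so a p-value covers only variation among these 6 libraries and that variation may be technical.

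NADPH oxidase moves electrons from NADPH across a membrane to oxygen and makes superoxide, which phagocytes use against ingested microbes. Its membrane core is dormant until cytosolic subunits and a Rac GTPase join it. Superoxide dismutases turn superoxide into hydrogen peroxide, which catalase, glutathione peroxidases and peroxiredoxins remove.

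Reads in genes ranged from 14734225 to 17326353 per library, and each of the 9 genes had between 4452 and 42702 reads in every library. The 4OHE1 library stood apart from the others on the first principal component of all tested genes (30.6% of the variance), with a score of 50.5 against -19.4 to -1.51 for the other 5, and results that rest on it are given without it where a call changes. The summed level of 10 macrophage markers was 8274 to 8700.3 RPKM (reads scaled to transcript length and to the library's total) in controls and 7471 to 8694 in hydroxyestrogen libraries. None of these 10 markers passed the test at an adjusted p of 0.05, although 4 had an unadjusted p under 0.05, as 13.5% of all tested genes did. Summed neutrophil markers, of which 10 of 11 were in the table and Retnlg was at 0 throughout, were 37.4 to 51.2 RPKM in controls and 33.6 to 38.9 in hydroxyestrogen libraries. The highest of them, S100a8, was at 21.3 to 37.0 RPKM in controls and 25.9 to 29.6 in hydroxyestrogen libraries. Of the 5 neutrophil markers tested, S100a8 alone had a log2 difference above 0 (0.01, hydroxyestrogens minus controls). Csf3r, S100a9, Camp and Ngp, at 6.56 RPKM or less in every library, had log2 differences of -0.72, -1.87, -1.14 and -0.18. None of the 5 passed the test, and 1, Csf3r, had an unadjusted p under 0.05 (0.0200 by limma). Elane, Mpo, Ltf and Cxcr2 were at 0.45 RPKM or less in every library. Neutrophils carry the same oxidase, and their part in the results was not tested. T and NK cell markers summed to at most 1.77 RPKM, B cell markers, of which 5 of 6 were in the table, to at most 0.113 and erythroid markers to at most 0.254. Stromal markers summed to 16.9 to 20.2 RPKM in controls and 13.3 to 20.2 in hydroxyestrogen libraries, and dendritic cell markers to 2.70 to 3.35 and 2.0 to 3.69. Mast cell and basophil markers summed to 43.9 to 46.7 RPKM in controls and 27.8 to 32.7 in hydroxyestrogen libraries; nearly all of this was Hdc, the histamine-forming enzyme, while Mcpt8, Fcer1a and Tpsb2 were at 0 in all 6 libraries. Hdc was called lower (log2 difference -0.57, adjusted p = 0.0122), with an adjusted p of 0.0604 to 0.0642 when any 1 control was left out, and its part in the results was not tested. In bulk RNA, fewer cells of a type and less RNA per cell cannot be told apart.

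Among the 9 genes, the transcript of catalase rose 1.5-fold in macrophages given a hydroxyestrogen before LPS, and no other gene of the 9 passed the test. The test was limma on log2(RPKM + 0.1), two-sided, with Benjamini-Hochberg adjustment over all 11991 genes tested and a threshold of 0.05. Thus 1 of 9 genes was called, where 1.88% of all tested genes were called, 1.28% higher and 0.6% lower. The median log2 difference of the 9 genes was 0.00, and that of all tested genes was -0.02. The hydroxyestrogen and control libraries did not overlap for 2 of the 9 genes, Cat and Sod1, both higher, while 20% of all tested genes had no overlap in either direction.

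**Figure D1:**
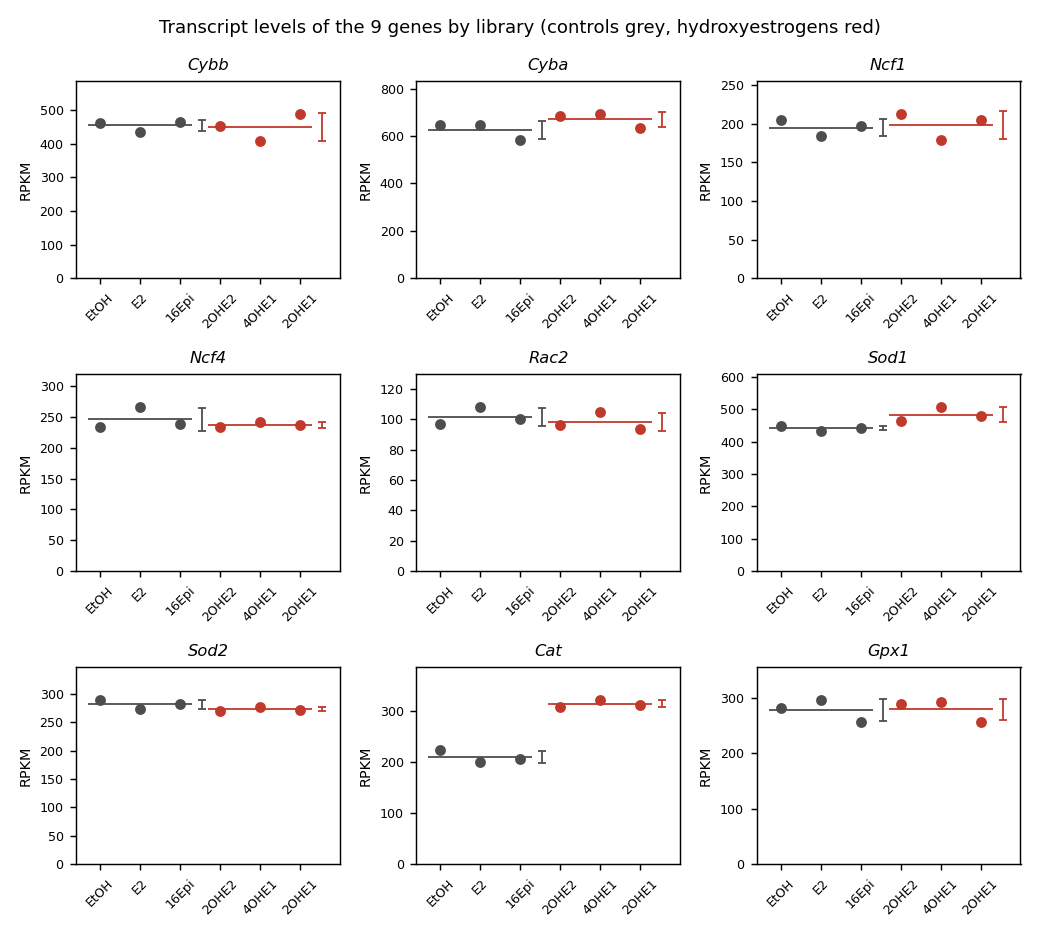
Levels of the 9 genes (vertical axes, RPKM, starting at 0) in each of the 6 libraries (horizontal axes). Points are single libraries, horizontal lines are group means and the bars beside them are ± 1 SD (n = 3 per group); for Cat the 3 hydroxyestrogen libraries, from 309 to 323, lie above the 3 controls, from 200.1 to 223, while for the oxidase subunits the groups overlap.

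The membrane core of the oxidase is a heterodimer of the catalytic subunit gp91phox, encoded by Cybb, and p22phox, encoded by Cyba. Cybb (mm9 X:9012380-9046450, minus strand) stood at 461 RPKM with EtOH, 436 with E2 and 464 with 16Epi, and at 451 with 2OHE2, 407 with 4OHE1 and 488 with 2OHE1. The lowest and the highest Cybb values were both in hydroxyestrogen libraries, and the control values lay between them. The pooled log2 difference was -0.02 (95% interval -0.19 to 0.15, adjusted p = 0.945). Cyba (mm9 8:124948671-124956840, minus strand) stood at 648, 646 and 582 RPKM with EtOH, E2 and 16Epi, and at 684, 693 and 634 with 2OHE2, 4OHE1 and 2OHE1. The 2OHE1 value lay among the controls, so the groups overlapped, and the log2 difference of 0.10 (95% interval -0.05 to 0.25) had an adjusted p of 0.573. As a fold, the intervals ran from 0.877 to 1.11 for Cybb and from 0.964 to 1.19 for Cyba.

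The bases upstream of Cybb are shown because LPS-treated macrophages carry an interferon response, which acts through elements of 2 GAAA repeats spaced by NN, where N is any base. The windows are the 250 bases before the gene start, from RefSeq on GRCm38.p6, a later build than the mm9 of the expression table, and 7 of the 9 genes had one. In the Cybb window, X:9469325-9469574 on the minus strand, capitals mark the 3 matches to this element (GAAA, NN, GAAA), which appear as the reverse complement where they lie on the opposite strand.
Cybb: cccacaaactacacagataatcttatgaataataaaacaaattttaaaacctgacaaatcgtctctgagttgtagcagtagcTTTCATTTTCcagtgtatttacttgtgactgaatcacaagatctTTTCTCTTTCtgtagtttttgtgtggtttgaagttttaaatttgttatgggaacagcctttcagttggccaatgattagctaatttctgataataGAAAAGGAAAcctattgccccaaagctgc
Counted from the gene start, the matches began at -168 and -124 on the opposite strand and at -29 on the gene's own strand, and none overlapped a match to another motif searched. Of 32851 windows of this length, 2.98% held at least 1 match and 0.0122% held as many as Cybb. Ncf1 held 1 such match, and Cyba, Sod1, Sod2, Cat and Gpx1 none.

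The cytosolic subunits differed from controls by less than the spread between libraries. Ncf1 encodes p47phox, the organiser that carries the complex to the membrane. Ncf1 (mm9 5:134695923-134705495, minus strand) was at 205 RPKM with EtOH, 184 with E2 and 197 with 16Epi, and at 213, 179 and 205 with 2OHE2, 4OHE1 and 2OHE1. The 4OHE1 library was the lowest of all 6 and the 2OHE2 library the highest. Its pooled log2 difference was 0.02 (95% interval -0.16 to 0.21, adjusted p = 0.936). Ncf4, which encodes p40phox, the subunit that binds phosphatidylinositol 3-phosphate on phagosomes, lies at mm9 15:78075241-78093010 on the plus strand. Its levels were 233, 266 and 238 RPKM with EtOH, E2 and 16Epi and 233, 242 and 236 with 2OHE2, 4OHE1 and 2OHE1. The E2 library alone stood above the other 5, and the log2 difference was -0.05 (95% interval -0.20 to 0.10, adjusted p = 0.810). Rac2, the haematopoietic Rac GTPase of the complex, lies at mm9 15:78389599-78403213 on the minus strand. It had the lowest level of the 9 genes, at 96.5, 108 and 100.4 RPKM with EtOH, E2 and 16Epi and at 96.4, 104 and 93.5 with 2OHE2, 4OHE1 and 2OHE1. The groups overlapped, and its log2 difference was -0.05 (95% interval -0.22 to 0.12, adjusted p = 0.824).

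Of the superoxide dismutases, Sod1 lay slightly higher in every hydroxyestrogen library without passing the test, while the Sod2 values of the groups overlapped. Sod1 encodes the cytosolic copper and zinc enzyme and lies at mm9 16:90220987-90226569 on the plus strand. Its levels were 446, 434 and 441 RPKM with EtOH, E2 and 16Epi and 464, 507 and 479 with 2OHE2, 4OHE1 and 2OHE1. All 3 hydroxyestrogen values exceeded all 3 control values, with 4OHE1 the highest. The log2 difference of 0.13 (SE 0.06, 95% interval -0.00 to 0.27) had an unadjusted p of 0.0504 and an adjusted p of 0.369 in the limma fit. In the authors' deposited table the Sod1 log2 difference was 0.16, with a p of 0.0456 and an adjusted p of 0.294. Sod2, the manganese enzyme of mitochondria, is known as an NF-kB target that LPS induces in macrophages. Sod2 (mm9 17:13200705-13210985, plus strand) was at 289, 273 and 281 RPKM with EtOH, E2 and 16Epi and at 269.6, 277 and 272 with 2OHE2, 4OHE1 and 2OHE1. The groups overlapped within a narrow range, and the log2 difference was -0.04 (95% interval -0.17 to 0.09, adjusted p = 0.799).

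The upstream windows of both dismutases are shown for the GC boxes of Sod2 and for the only match to the antioxidant response element among the 7 windows, that of Sod1. In the Sod2 window (GRCm38.p6 17:13007589-13007838, plus strand) capitals mark the 4 matches to GGGCGG, and in the Sod1 window (GRCm38.p6 16:90220512-90220761, plus strand) they mark the match to TGACNNNGC, which lies on the opposite strand and so appears as its reverse complement.
Sod2: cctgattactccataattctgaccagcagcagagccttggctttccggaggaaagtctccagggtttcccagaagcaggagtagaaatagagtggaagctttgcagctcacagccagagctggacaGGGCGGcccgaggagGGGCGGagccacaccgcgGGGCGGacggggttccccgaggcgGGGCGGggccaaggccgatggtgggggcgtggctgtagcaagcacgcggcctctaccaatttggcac
Sod1: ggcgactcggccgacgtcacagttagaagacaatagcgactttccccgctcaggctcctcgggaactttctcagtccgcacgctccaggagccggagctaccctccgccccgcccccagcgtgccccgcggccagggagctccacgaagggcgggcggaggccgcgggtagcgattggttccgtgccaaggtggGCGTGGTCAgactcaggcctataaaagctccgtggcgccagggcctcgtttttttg
Both strands were searched. The GGGCGG matches of Sod2 began at -124, -109, -91 and -67 from the gene start. At least 1 GGGCGG was present in 32.7% of the windows, and 4.09% held 4 or more, which Sod1 also did. The Sod1 match to TGACNNNGC began at -56, and 10.2% of all windows held such a match.

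Catalase, the peroxisomal enzyme that splits hydrogen peroxide into water and oxygen, was the gene of the 9 that rose. Cat (mm9 2:103294061-103325310, minus strand) was at 223 RPKM with EtOH, 200.1 with E2 and 206 with 16Epi, and at 309 with 2OHE2, 323 with 4OHE1 and 313 with 2OHE1. The hydroxyestrogen values lay close together and far above every control. The mean rose from 209.6 ± 12.0 to 315 ± 6.91 RPKM (SD, n = 3 per group), a log2 difference of 0.59 (SE 0.06, 95% interval 0.44 to 0.73) with an adjusted p of 0.00255 in the limma fit. In the authors' deposited table the log2 difference of Cat was 0.61, with an adjusted p of 1.25e-14, and 2.42% of the genes in that table passed the same threshold. The Cat call held when each library in turn was left out, with adjusted p-values from 0.00740 to 0.0208. It was lost when the prior variance was held constant across expression levels, where the adjusted p was 0.110 for the same log2 difference and only 12 genes in all were called.

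The Cat window (GRCm38.p6 2:103485154-103485403, minus strand) is shown because it belongs to the gene that rose and because it holds 4 CCAAT boxes. Capitals mark these matches to CCAAT on both strands, written as ATTGG where they lie on the opposite strand.
Cat: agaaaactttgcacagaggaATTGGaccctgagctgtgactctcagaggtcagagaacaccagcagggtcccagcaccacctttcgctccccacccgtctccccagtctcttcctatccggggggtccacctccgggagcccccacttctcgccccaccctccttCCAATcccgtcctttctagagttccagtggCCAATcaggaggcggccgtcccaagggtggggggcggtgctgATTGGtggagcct
They began at -85 and -55 from the gene start on the gene's own strand and at -230 and -13 on the other. At least 1 CCAAT was present in 33.8% of the 32851 windows, and 0.840% held as many as Cat. Cybb, Sod1 and Sod2 each held 1 CCAAT, and Cyba, Ncf1 and Gpx1 held none. The letters TGACNNNGC are not in this Cat window.

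Gpx1 encodes the cytosolic and mitochondrial glutathione peroxidase, a selenoenzyme that reduces hydrogen peroxide with glutathione. Gpx1 (mm9 9:108241411-108242673, plus strand) was at 282, 296 and 257 RPKM with EtOH, E2 and 16Epi and at 289, 292 and 257 with 2OHE2, 4OHE1 and 2OHE1. The values of the groups nearly coincided, and the log2 difference was 0.00 (95% interval -0.17 to 0.18, adjusted p = 0.99). The ratio of the Cat level to the Gpx1 level in the same library was 0.790, 0.675 and 0.801 with EtOH, E2 and 16Epi and 1.07, 1.105 and 1.22 with 2OHE2, 4OHE1 and 2OHE1. Cat lay below Gpx1 in every control and above it in every hydroxyestrogen library. An exact permutation test of this ratio, two-sided, gave p = 0.1, the smallest that 3 libraries against 3 can give.

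Ratios within a library do not depend on its scaling to total reads. The ratio of Cat to Sod2 had a mean of 0.745 ± 0.0227 in controls and 1.15 ± 0.00995 in hydroxyestrogen libraries (SD, n = 3 per group), again without overlap and with an exact permutation p of 0.1. Its hydroxyestrogen values of 1.15, 1.17 and 1.15 were nearly the same for the 3 compounds. The ratio of Sod1 to Sod2 had means of 1.57 in controls and 1.77 in hydroxyestrogen libraries, also without overlap (exact permutation p = 0.1). The ratio of Cyba to Cybb, the partners of the membrane core, was 1.40, 1.48 and 1.25 with EtOH, E2 and 16Epi and 1.52, 1.70 and 1.30 with 2OHE2, 4OHE1 and 2OHE1. These ranges overlapped, and the exact permutation p was 0.4. The 4 ratios computed are all given here, and none can pass 0.05 before or after adjustment.

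**Figure D2:**
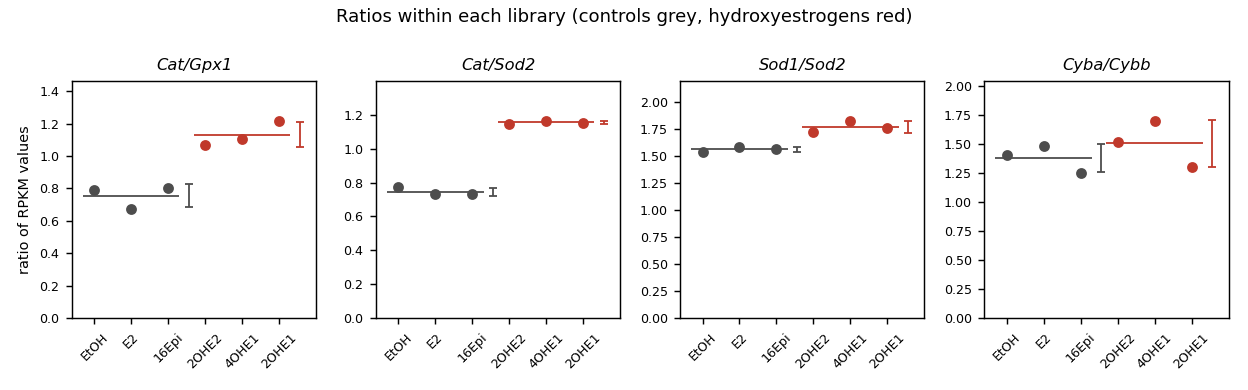
Ratios of RPKM values within each library (vertical axes, starting at 0) for Cat to Gpx1, Cat to Sod2, Sod1 to Sod2 and Cyba to Cybb. Points are single libraries, lines are group means and bars are ± 1 SD (n = 3 per group); every hydroxyestrogen library lies above every control for Cat to Gpx1 (means of 1.13 and 0.755), Cat to Sod2 and Sod1 to Sod2, while the groups overlap for Cyba to Cybb.

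On the RPKM scale, which divides by transcript length, the controls ordered the genes as Cyba (625), Cybb (454), Sod1 (440.3), Sod2 (281), Gpx1 (279), Ncf4 (246), Cat (209.6), Ncf1 (195) and Rac2 (102). The ranges over the 3 controls overlapped between Cybb and Sod1, between Sod2, Gpx1 and Ncf4 as neighbours, and between Cat and Ncf1, so these neighbours did not differ beyond their spread. In the hydroxyestrogen libraries the order was Cyba (670.4), Sod1 (483), Cybb (449), Cat (315), Gpx1 (279), Sod2 (273), Ncf4 (237), Ncf1 (199) and Rac2 (98.1). There the neighbours Sod1 and Cybb, and Gpx1 and Sod2, overlapped. Cat moved from rank 7 to rank 4, past Ncf4, Sod2 and Gpx1, and its range no longer met that of a neighbour. Cyba remained the highest and Rac2 the lowest in both groups.

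The 3 hydroxyestrogens were given at the same dose and time, and Cat lay above the controls for each of them. In a fit with 1 coefficient per compound, which takes each single library to scatter as the controls do, the Cat log2 difference was 0.56 for 2OHE2 (95% interval 0.37 to 0.76, adjusted p = 0.0506). It was 0.62 for 4OHE1 (0.43 to 0.82, adjusted p = 0.0194) and 0.58 for 2OHE1 (0.38 to 0.78, adjusted p = 0.0476). The values for 2OHE2 and 2OHE1 thus lay just to either side of the threshold. Cat was called for 4OHE1 and 2OHE1, which makes 2 calls among 27 differences of a gene and a compound, where 3.69% of all tested genes were called for 4OHE1, 0.542% for 2OHE1 and 0.609% for 2OHE2. Without the EtOH library the adjusted p for 2OHE2 was 0.00876. Without the E2 library it was 0.0725 for 4OHE1 and 0.167 for 2OHE1, and without the 16Epi library it was 0.0698 for 2OHE1. Without a filter on low reads it was 0.117 for 4OHE1 and 0.183 for 2OHE1. The 3 comparisons share their controls.

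For the other 8 genes no compound passed the test. The Sod1 log2 difference was 0.08 for 2OHE2, 0.20 for 4OHE1 (unadjusted p = 0.0152, adjusted p = 0.120 in the limma fit) and 0.12 for 2OHE1. Cybb differed from controls by -0.01 for 2OHE2, -0.16 for 4OHE1 and 0.11 for 2OHE1 on the log2 scale, so its sign was not shared by the compounds. Ncf1 differed by 0.13, -0.13 and 0.07 for the same compounds, and Gpx1 by 0.06, 0.07 and -0.11. With limma-voom on the recovered reads, the lower Cybb level of 4OHE1 had an adjusted p of 0.0466 against controls, a call that 13.7% of all tested genes received with that tool and compound.

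**Figure D3:**
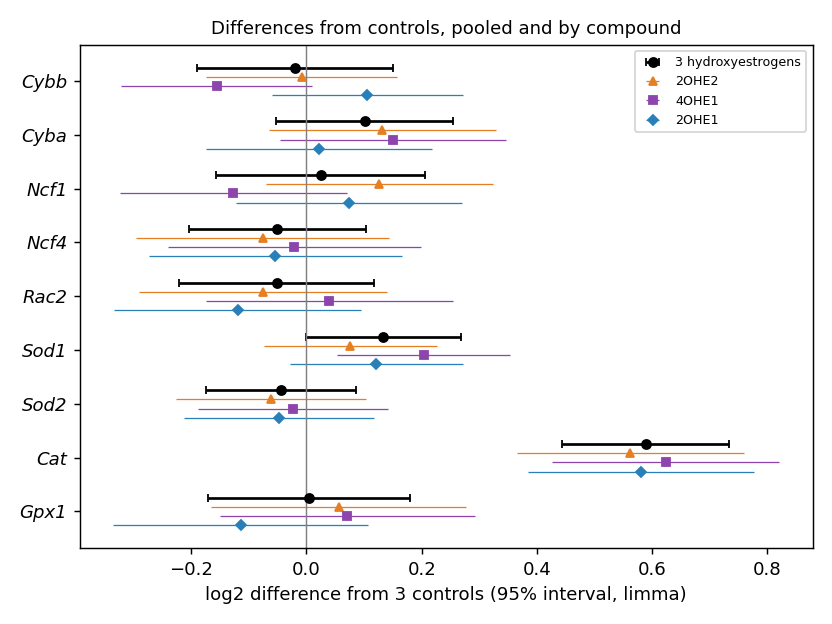
Log2 differences from the 3 controls (horizontal axis, limma on log2(RPKM + 0.1)) for each of the 9 genes, for the 3 hydroxyestrogens together (black circles) and for 2OHE2 (orange triangles), 4OHE1 (purple squares) and 2OHE1 (blue diamonds). Lines are 95% intervals; the Cat intervals lie above 0 for each compound, and for the pooled difference they reach from 0.44 to 0.73.

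Between the hydroxyestrogens, 3 pairs were compared, with p-values adjusted over the 3 pairs and all tested genes together. None of 27 differences of a gene and a pair was called by limma on log2(RPKM + 0.1), where 0.0417%, 0.0417% and 0.05% of all tested genes were called in the 3 pairs. At an unadjusted p under 0.05 there were 2, and the lowest adjusted p was 0.293. 4OHE1 and 2OHE1 differ in the position of the added hydroxyl group on the aromatic ring, and their Cat levels differed by 0.04 on the log2 scale (4OHE1 minus 2OHE1, 95% interval -0.20 to 0.28). 2OHE2 and 2OHE1 differ in the D ring, with a hydroxyl group in the former and a keto group in the latter, and Cat differed by -0.02 (2OHE2 minus 2OHE1, -0.26 to 0.22). 4OHE1 and 2OHE2 differ in both, and Cat differed by 0.06 (4OHE1 minus 2OHE2, -0.18 to 0.30). These intervals do not show that the compounds act alike; they reach as far as 0.30 on the log2 scale, against a pooled Cat difference of 0.59.

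The pair with the lowest p was Cybb between 4OHE1 and 2OHE1, at 407 and 488 RPKM. The log2 difference of Cybb was -0.26 (4OHE1 minus 2OHE1, 95% interval -0.46 to -0.06, adjusted p = 0.293), and with limma-voom the adjusted p was 0.0445, where 1.29% of all tested genes were called by that tool. The other was Ncf1 between 4OHE1 and 2OHE2, at 179 and 213 RPKM, with a log2 difference of -0.25 (4OHE1 minus 2OHE2, 95% interval -0.49 to -0.01, adjusted p = 0.350). Both subunits were lowest in the 4OHE1 library, by differences that did not pass the test on log2(RPKM + 0.1).

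Other oxidase genes were examined as a list of 11 further subunits and dual oxidase relatives, of which 4 were tested. Of these 4, none was higher, 1 was lower and 3 were not called. Over all tested genes, 1.28% were called higher and 0.6% lower. The median log2 difference of the 4 was -0.14, and that of all tested genes was -0.02. The gene that fell was Nox1, the catalytic subunit of a related oxidase best known from colon epithelium, and it fell from a low level. Nox1 (mm9 X:130620960-130646393, minus strand) was at 9.09, 10.7 and 9.35 RPKM with EtOH, E2 and 16Epi and at 4.78, 3.79 and 5.84 with 2OHE2, 4OHE1 and 2OHE1. The highest hydroxyestrogen value was below the lowest control, and the log2 difference was -1.02 (95% interval -1.43 to -0.61, adjusted p = 0.0247). The adjusted p was 0.0774 without EtOH, 0.123 without E2, 0.106 without 16Epi and 0.0558 without 2OHE2, and it was 0.0750 without a filter on low reads. Noxo1, its organiser, stood at 0.40 RPKM in controls and 0.47 in hydroxyestrogen libraries, and Noxa1, its activator, had no read in any library. Rac1, the broadly expressed Rac GTPase, was at 177 and 168 RPKM (log2 difference -0.08, adjusted p = 0.620), and BC017643, an older symbol of the chaperone gene Cybc1, at 21.9 and 18.9 (log2 difference -0.21, adjusted p = 0.412). The other genes of the list, Nox3, Nox4, Duox1, Duox2, Duoxa1 and Duoxa2, had too few reads to be tested.

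Regulators of oxidase assembly, Rac loading and charge balance were listed as 21 genes, all tested. Of these, 1 was higher and none was lower, where 1.28% of all tested genes were called higher and 0.6% lower. The median log2 difference of the 21 was -0.15. At an unadjusted p under 0.05 there were 6, against 13.5% of all tested genes. Besides Hvcn1, which lay higher, these were 5 genes with lower levels that did not pass the test: the GTPases Rap1a and Rap1b (log2 differences -0.34 and -0.26), the Rac exchange factor Tiam1 (-0.81) and the Rac-activated kinases Pak1 and Pak2 (-0.45 and -0.22), with adjusted p-values from 0.0745 to 0.347. The groups did not overlap for 9 of the 21 regulators, of which 7 were lower and 2 higher in the hydroxyestrogen libraries, where 20% of all tested genes had no overlap. The one that rose was Hvcn1, the voltage-gated proton channel that carries out the charge left behind by the oxidase. Hvcn1 (mm9 5:122660296-122692306, plus strand) was at 96.7, 95.9 and 93.4 RPKM with EtOH, E2 and 16Epi and at 138, 144 and 123 with 2OHE2, 4OHE1 and 2OHE1. The groups were well apart, with a log2 difference of 0.50 (95% interval 0.33 to 0.67, adjusted p = 0.0111). The adjusted p was 0.0553 without E2 and 0.0643 without 16Epi. Part of Hvcn1 overlaps Tctn1 on the opposite strand, which stood at 35.8 ± 1.75 RPKM in controls and 50.02 ± 6.44 in hydroxyestrogen libraries (SD, n = 3 per group). Reads within the stretch shared by the 2 genes cannot be assigned to either without the strand of the counting. The share of Hvcn1 reads that lie there was not examined.

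The relatives of the removing enzymes gave no call in most lists. Over all tested genes, 1.88% were called and 13.5% had an unadjusted p under 0.05. Of 9 further superoxide dismutase and glutathione peroxidase genes, with Ccs, the copper chaperone of SOD1, 5 were tested and none was called by limma, none had an unadjusted p below 0.05 either, and their median log2 difference was 0.05. Gpx4, the peroxidase of lipid hydroperoxides, was at 106, 105.7 and 104 RPKM with EtOH, E2 and 16Epi and at 119.6, 144 and 102 with 2OHE2, 4OHE1 and 2OHE1 (adjusted p = 0.486). Gpx3, the secreted enzyme, was at 3.36 and 4.16 RPKM in controls and hydroxyestrogen libraries (log2 difference 0.30, adjusted p = 0.536), and Ccs at 16.6 and 17.1 (0.05, adjusted p = 0.936). Gpx8, of the endoplasmic reticulum, ranged from 0.052 to 2.40 RPKM within the hydroxyestrogen group alone (adjusted p = 0.617). The 8 genes of selenocysteine insertion, on which Gpx1 depends, were all tested, none was called or had an unadjusted p below 0.05, and their median was 0.02. Of these, Sephs2, which makes the selenium donor, had the smallest p, with 38.1 RPKM in controls and 42.7 in hydroxyestrogen libraries (log2 difference 0.16, adjusted p = 0.434). Trnau1ap, Pstk and Secisbp2 had log2 differences of 0.17, -0.36 and 0.17, with adjusted p-values from 0.594 to 0.760.

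Catalase works in peroxisomes, and 25 genes of peroxisomal enzymes and import were tested beside it. Over all tested genes, 1.88% were called, 13.5% had an unadjusted p under 0.05 and 20% had no overlap between the groups. Among the 25 none was called, none had an unadjusted p under 0.05 and none was without overlap. Their median log2 difference was -0.02. The smallest p was that of Pex3, a factor of peroxisome membrane assembly, at 10.2 ± 1.67 RPKM in controls and 7.66 ± 1.66 in hydroxyestrogen libraries (SD, n = 3 per group; log2 difference -0.42, 95% interval -0.85 to 0.01, adjusted p = 0.386). Pex6, an ATPase of import receptor recycling, had a log2 difference of 0.27 (adjusted p = 0.536), Acaa1a, a thiolase of fatty acid oxidation, 0.13 (adjusted p = 0.559), and Hao1, a peroxide-forming oxidase near 0 RPKM, 0.73 (adjusted p = 0.541).

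The peroxiredoxin, thioredoxin and glutaredoxin systems, which remove peroxide with thiols, were listed as 23 genes, all tested. Of these, 5 were higher, 1 was lower and 17 were not called, where 1.88% of all tested genes were called. At an unadjusted p under 0.05 there were 9, against 13.5% of all tested genes, with a median log2 difference of 0.07. Those that rose were Srxn1, which repairs overoxidised peroxiredoxins, with a log2 difference of 1.15, Prdx6 with 0.72, Prdx1 with 0.66, the thioredoxin reductase Txnrd1 with 0.57, and the glutathione reductase Gsr with 0.45. Prdx1, a cytosolic peroxiredoxin, stood above all the genes named so far, at 2619, 2550.4 and 2401 RPKM with EtOH, E2 and 16Epi and at 3519.7, 4698 and 3806 with 2OHE2, 4OHE1 and 2OHE1. Glrx, a glutaredoxin that removes glutathione from proteins, fell by 0.42 on the log2 scale (adjusted p = 0.0349), with 175 ± 15.6 RPKM in controls and 131 ± 6.36 in hydroxyestrogen libraries (SD, n = 3 each).

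Some of these calls were lost when 1 library was left out. Calls over all genes then also went from 225 to 127 without EtOH, 86 without E2 and 76 without 16Epi. They went to between 174 and 198 when 1 hydroxyestrogen library was left out. The adjusted p of Prdx1 was 0.0579 without E2 and 0.0674 without 16Epi, that of Prdx6 0.0587 and 0.0699, and that of Gsr 0.0531 without 16Epi. That of Glrx was 0.158 without E2, 0.176 without 16Epi, 0.0796 without 4OHE1 and 0.0936 without 2OHE1. Without a filter on low reads the adjusted p was 0.107 for Prdx1, 0.0695 for Prdx6 and 0.0969 for Glrx. With a constant prior variance none of these 6 genes was called. Srxn1 and Txnrd1 stayed under 0.05 whichever library was left out. Prdx6 has a near-identical copy, Prdx6b, and no source used here states how reads shared by both were counted, so its level is uncertain.

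Among 11 NRF2 targets, all tested, 8 were higher and none lower, where 1.28% of all tested genes were called higher and 0.6% lower. The median log2 difference of the list was 0.76, and that of all tested genes was -0.02. Srxn1, Txnrd1 and Gsr belong to this list too. The other 5 that rose were Gclc and Gclm, the catalytic and modifier subunits of the enzyme that starts glutathione synthesis, with log2 differences of 1.66 and 0.93, Hmox1, the inducible haem oxygenase, with 1.40, the carbonyl reductase Cbr3 with 1.32, and the quinone reductase Nqo1 with 0.76. Their adjusted p-values ranged from 6.6e-05 to 0.00414. Gclc was at 20.6, 21.4 and 21.4 RPKM with EtOH, E2 and 16Epi and at 62.1, 71.4 and 67.0 with 2OHE2, 4OHE1 and 2OHE1, so that no value of either group came near the other. Slc7a11, G6pdx and Me1 were not called, at 0.15, 0.21 and 0.57. The Cat difference of 0.59 lay below the median of the list.

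**Figure D4:**
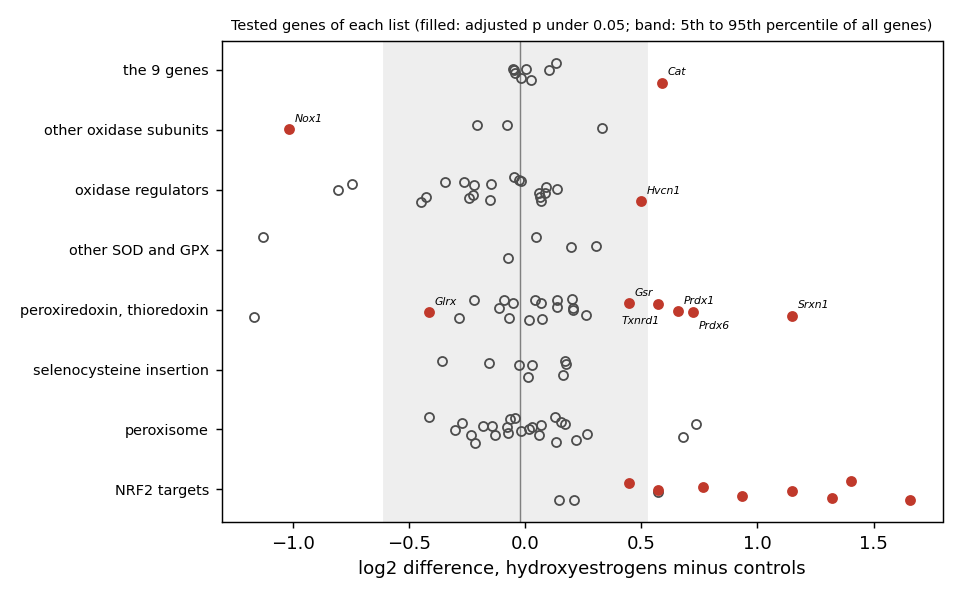
Log2 difference, hydroxyestrogens minus controls (horizontal axis, limma on log2(RPKM + 0.1)), of every tested gene in each list (rows; vertical scatter within a row has no meaning). Filled red points passed an adjusted p of 0.05, the grey band reaches from the 5th to the 95th percentile of all tested genes (-0.61 to 0.53) and the grey line is their median of -0.02; Cat lies beyond the band, while the other 8 genes and all but 2 of the peroxisome genes lie inside it.

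The genes whose pattern over the 6 libraries was most like that of each of the 9 were taken by the highest Pearson correlation of log2(RPKM + 0.1), among the 9094 tested genes that averaged 100 reads or more. These are descriptions over 6 libraries that share their group difference, and with so many genes searched a high value can be found for many patterns. For Cat it was Gbe1, the glycogen branching enzyme (r = 0.9996), at 16.7, 14.4 and 14.8 RPKM with EtOH, E2 and 16Epi and at 25.8, 26.7 and 26.2 with 2OHE2, 4OHE1 and 2OHE1. Both genes were highest with 4OHE1 and lowest with E2. For Sod1 it was Mfsd5 (r = 0.995), for Rac2 Mcm5 (r = 0.998), for Cybb Asb7 (r = 0.992) and for Cyba Mrgbp (r = 0.986). For Ncf1 it was Arhgap5 (r = 0.989), for Ncf4 Rbck1 (r = 0.980), for Sod2 Eif5b (r = 0.991) and for Gpx1 0610009O20Rik (r = 0.988). A correlation does not measure the size of a change. Over the 6 libraries Mcm5 ranged only from 31.1 to 31.8 RPKM, while Rac2 ranged from 93.5 to 108.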

How the data were processed

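RNA of 6 libraries was sequenced as mRNA. The submitters' processing notes name STAR, HOMER, DESeq2, edgeR and mm9, without versions. RPKM values were made by the authors with HOMER over exons, 1 entry per gene, scaled to transcript length and total tags, per the file headers. The authors' deposited table gives log2 expression values, a log2 fold change (positive where controls are higher, checked against the values, and printed here with its sign turned) and p-values for 24505 genes. The sources used here state neither the handling of multimapped reads nor the strand setting.

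Groups follow the sample titles and column headers; a treatment field in the labels has them the other way round and was not used. The unit of the dose is unclear in the labels, and 1 mM stocks diluted 1 to 1000 give 1 µM. RPKM times length and total tags gave whole reads: 100% of 1873 to 2607 values under 20 reads per library, in genes under 6000 nt, lay within 0.1 of a whole number. The filter asked for 10 or more such reads in 3 or more libraries and kept 11991 of 24016 genes.

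The test was limma 3.58.1 in R 4.3.3 on log2(RPKM + 0.1) (trend on mean expression; Benjamini-Hochberg adjustment; two-sided; 4 residual degrees of freedom, and 2, from the controls, in the fit by compound). A fold change on this scale slightly understates that of genes with low values. Single ratios had an exact permutation test in scipy 1.17.1, which cannot give a p below 0.1. The scripts were tested on simulated data. Alternatives were a pseudocount of 1, no filter on reads, a mean of at least 1000 reads, median-ratio scaling, limma-voom on recovered reads, the authors' log2 values, a constant prior variance, a replicate block and leaving out each library.

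The 9 genes and the gene lists were chosen with earlier results of these data known. Named were the 9 genes, every called gene of each list or else up to 4 with the smallest p, and the gene most like each of the 9; other genes named were chosen after their values were seen. Listed genes without a name in the text enter only the counts, and 1 further gene is not reported here. Promoter windows are RefSeq's on GRCm38.p6, and expression coordinates are those of the table on mm9; the builds were not converted.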

Additional observations from a re-analysis of the deposited data

How the results depend on the processing

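The pooled Cat difference kept its direction in every alternative run (log2 0.50 to 0.63) and its call in all but the constant prior variance, under which 0 of the 9 genes and 12 genes in all were called. Leaving out 1 library at a time left 1 of the 9 genes called for the pooled comparison, and 0 to 1 for each of 2OHE2, 4OHE1 and 2OHE1 against controls. For 2OHE2 the count was 0, and 1 with a pseudocount of 1 or with limma-voom. For 4OHE1 it was 1, with 0 without a filter and 2 (Cat and Cybb) with limma-voom. For 2OHE1 it was 1, with 0 without a filter and 0 with median-ratio scaling. Between 4OHE1 and 2OHE1 limma-voom called 1 (Cybb) and limma on log2 values 0.

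Counts over all genes moved more. The pooled comparison called 225 genes, and 94 without a filter, 346 with a mean of at least 1000 reads, 433 with limma-voom, 483 on the authors' log2 values and 76 to 198 with 1 library left out (127 without EtOH, 86 without E2, 76 without 16Epi). For 2OHE2 the count was 73, with 307 without a filter, 463 with limma-voom and 14 (without E2) to 199 (without EtOH) with 1 control left out. For 4OHE1 it was 442, with 266, 1639 and 70 (without E2) to 712 (without EtOH) under the same settings. For 2OHE1 it was 65, with 245, 374 and 8 (without E2) to 218 (without EtOH). The pairs 4OHE1 and 2OHE1, 2OHE2 and 2OHE1, and 4OHE1 and 2OHE2 called 5, 5 and 6 genes; a pseudocount of 1 gave 3, 2 and 3, limma-voom 155, 50 and 167, and leaving out 1 control 12 to 45, 6 to 40 and 9 to 52.

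Of the other oxidase subunits 1 was called (Nox1), with 0 without a filter, 0 with a mean of at least 1000 reads (which Nox1 does not reach), 0 with a constant prior variance and 0 to 1 with 1 library left out. Of the regulators 1 was called, with 2 at a mean of at least 1000 reads, 3 with limma-voom, 2 on the authors' log2 values, 0 with a constant prior variance and 0 to 1 with 1 library left out. Of the peroxiredoxin and thioredoxin genes 6 were called, with 3 without a filter, 0 with a constant prior variance and 2 to 6 with 1 library left out; of the NRF2 targets 8 were called, and 3 with a constant prior variance. Apart from these constructions, the causes were not tested.

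Signs turned for 5 uncalled differences under 0.1 in size, and for that of Pstk (-0.36), when 1 library was left out. Over these, the log2 difference of Cybb ranged from -0.082 to 0.049 (positive without 4OHE1) and that of Ncf4 from -0.087 to 0.0088 (positive without E2). Ncf1 ranged from -0.026 to 0.10 and was negative without 2OHE2, without E2 (-0.02) and without 2OHE1 (-0.00). Gpx1 ranged from -0.053 to 0.063 and was negative without 16Epi, 2OHE2 and 4OHE1. Ccs ranged from -0.056 to 0.19 and was negative without E2, 16Epi and 4OHE1, and Pstk ranged from -0.59 to 0.034 and was positive without 4OHE1. Among single genes, 467 values kept direction and call, 42 lost the call, 4 gained one and 12 turned.

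The labels number the libraries of both groups. Same-numbered libraries barely deviated together (r = -0.04, 0.07 and 0.04), and not every library correlated best with its own number. Since every library holds a different compound, these values cannot decide whether the numbers pair the libraries. The main test used no pairing. With the replicate number as a block the calls went from 225 to 165 genes, Cat kept its call (adjusted p = 0.00853), and the other oxidase subunits went from 1 call to 0 (Nox1 adjusted p = 0.0542), while Glrx lost its call (0.0740) and no other call of a named gene changed. With 3 libraries a group and 1 a compound, small differences cannot be resolved here; each of the 9 genes had 4452 or more reads in every library.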
